A study of Mus musculus with 4 samples.

Results

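The genes described here encode the proteins of the large subunit of the cytosolic ribosome. A feature was a member when its symbol was Rpl followed by a number, with or without a final a, or was Rplp0, Rplp1 or Rplp2, and when it had at least 100 UMIs (unique molecular identifiers, the counted RNA molecules) over the 4 libraries. This gave 46 members of 31053 features. No matching symbol fell under the minimum, and the least counted member, Rpl13a, had 55435 UMIs.

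The study made 4 droplet libraries with the 10x 3′ chemistry, 1 per condition, so no value below has a replicate within a condition. Wild-type C57/bl6 mice carried tumours grown from 300000 TC-1 cells, a transplantable mouse tumour line, placed under the skin. At a tumour size of 40 mm² they received PBS or cisplatin, a platinum drug that damages DNA, at 6 mg/kg by a single intraperitoneal injection. Tumours were taken 1, 3 and 7 days after cisplatin, and no day is given for the PBS library, whose source is called untreated in another label. The sort took cells positive for CD45, CD90 and CD127 and without lineage markers, and the number of mice behind each library is not stated.

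The large subunit holds the peptidyl transferase centre, where peptide bonds form, and the tunnel through which the new chain leaves. Rplp0, Rplp1 and Rplp2 form its stalk, which recruits elongation factors, while Rpl5 and Rpl11 join the 5S rRNA in a particle that can also bind Mdm2 and thereby stabilise p53. The mRNAs of ribosomal proteins usually start with a C followed by a run of pyrimidines, the 5′ terminal oligopyrimidine tract, through which mTOR signalling controls their translation. Activated lymphocytes and dividing cells are known for high ribosome synthesis.

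The start sites of the 5 highest and the 5 lowest members of the day 7 comparison are printed. They are shown because mRNAs of this family usually carry this tract. Members were ranked by their ratio over all kept barcodes, among those in the RefSeq promoter table. Each line runs 5′ to 3′ from 10 bases before to 20 bases after the annotated start in RefSeq (build GRCm38.p6). Capitals mark the longest run of C and T in the line. It can lie before the start, as it wholly does in Rpl27, Rpl4, Rpl5 and Rpl23. The first 5 genes were higher on day 7 than in PBS and the other 5 were lower.
Rpl13a: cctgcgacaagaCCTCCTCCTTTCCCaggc
Rpl35: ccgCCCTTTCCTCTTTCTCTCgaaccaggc
Rpl14: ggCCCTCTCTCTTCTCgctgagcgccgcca
Rpl27: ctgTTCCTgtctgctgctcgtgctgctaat
Rpl4: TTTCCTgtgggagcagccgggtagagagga
Rpl12: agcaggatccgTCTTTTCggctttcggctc
Rpl28: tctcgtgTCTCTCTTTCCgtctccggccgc
Rpl5: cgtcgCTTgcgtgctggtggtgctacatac
Rpl23: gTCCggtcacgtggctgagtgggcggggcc
Rpl18: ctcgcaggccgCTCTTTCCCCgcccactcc

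The Rpl13a window lies on the minus strand at chr7:45128726-45128755, as do those of Rpl35 at chr2:39005112-39005141 and Rpl23 at chr11:97782420-97782449. The others lie on the plus strand. Rpl14 is at chr9:120571507-120571536, Rpl27 at chr11:101442235-101442264, Rpl4 at chr9:64173377-64173406 and Rpl12 at chr2:32961702-32961731. Rpl28 is at chr7:4792955-4792984, Rpl5 at chr5:107900518-107900547 and Rpl18 at chr7:45718061-45718090. The longest run was 18 bases in Rpl35, 14 in Rpl13a and Rpl14, 6 in Rpl4 and 5 in Rpl27 among the genes that were higher. It was 11 bases in Rpl28, 10 in Rpl18, 7 in Rpl12 and 3 in Rpl5 and Rpl23 among those that were lower. The table held 40 starts of 34 members. A run of at least 8 bases occurred in 35% of them, in 34.5% of 29 starts of small subunit genes and in 11.2% of all 32851 starts. Some members were called higher on day 7 in each of the T, cycling macrophage and non-cycling macrophage gates described below. Of their starts, 3 of 6 had such a run. For members called lower in each of these gates, 11 of 23 starts had one. The motif CCGGAAG, searched on both strands from 250 bases before to 50 after the start, lay in 35% of the members' promoters and in 8.86% of all promoters. A match describes the letters only.

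After PBS, and 1, 3 and 7 days after cisplatin, the libraries held 10063, 10745, 6264 and 2981 barcodes. Of these 8075, 7484, 4964 and 2771 were kept, for having 500 genes or more and 10% mitochondrial counts or less. Kept barcodes had median depths of 5120 to 9120 UMIs, and 4 to 32 barcode sequences were shared between any 2 libraries. Against the sort label, 6924, 4694, 2408 and 2044 kept barcodes under PBS and on days 1, 3 and 7 lay in the macrophage gate. This gate required at least 10 UMIs of C1q, a macrophage marker, and no Cd3 or Ncr1 UMIs, and left out barcodes of other gates. The 3431, 3069, 1906 and 1417 barcodes under PBS and on days 1, 3 and 7 in the non-cycling macrophage gate compare with 154, 321, 586 and 94 in the T gate and 25, 18, 47 and 38 in the NK and ILC1 gate. The 6 check markers that did not define the T gate summed to 2864 to 4619 CPM (UMIs of a gene per 1000000 UMIs) in it and to 29.3 to 115 CPM in non-cycling macrophages. The day 7 library stood apart in more than the members: Gm42418, a gene model that overlaps ribosomal RNA sequence, had 1531, 2825, 2429 and 151 CPM under PBS and on days 1, 3 and 7. Whether the library or the reference used for it bears on the day 7 results was not tested, and with 1 library the day and the library cannot be told apart.

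All 46 members together made up 11.3% of UMIs in the PBS library, 10.2% on day 1, 8.52% on day 3 and 9.05% on day 7. The counts are of 3′ ends, 1 per molecule, so levels need no division by length. Some members share sequence with pseudogenes, and their levels are uncertain. Rpl41, which encodes a very short basic peptide, had the most UMIs over the 4 libraries, with 5303, 5048, 3938 and 5476 CPM under PBS and on days 1, 3 and 7. Rplp1 had 5026, 4639, 4274 and 2107 CPM, above Rpl41 on day 3 and far below it on day 7. The 6 members with the most UMIs also included Rpl37a, Rpl13, Rpl23 and Rpl32, at 1838 to 4617 CPM. The 6 with the fewest were Rpl13a, Rpl27, Rpl31, Rpl4, Rpl36a and Rpl7a, and all lay between 179 and 1628 CPM. Rpl13a spanned the widest range, 4.42-fold between its highest and lowest library. Of the 46 members, 27 had their highest level in the PBS library, 4 on day 1, none on day 3 and 15 on day 7, while 22 were lowest on day 3 and another 22 on day 7.

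**Figure D1:**
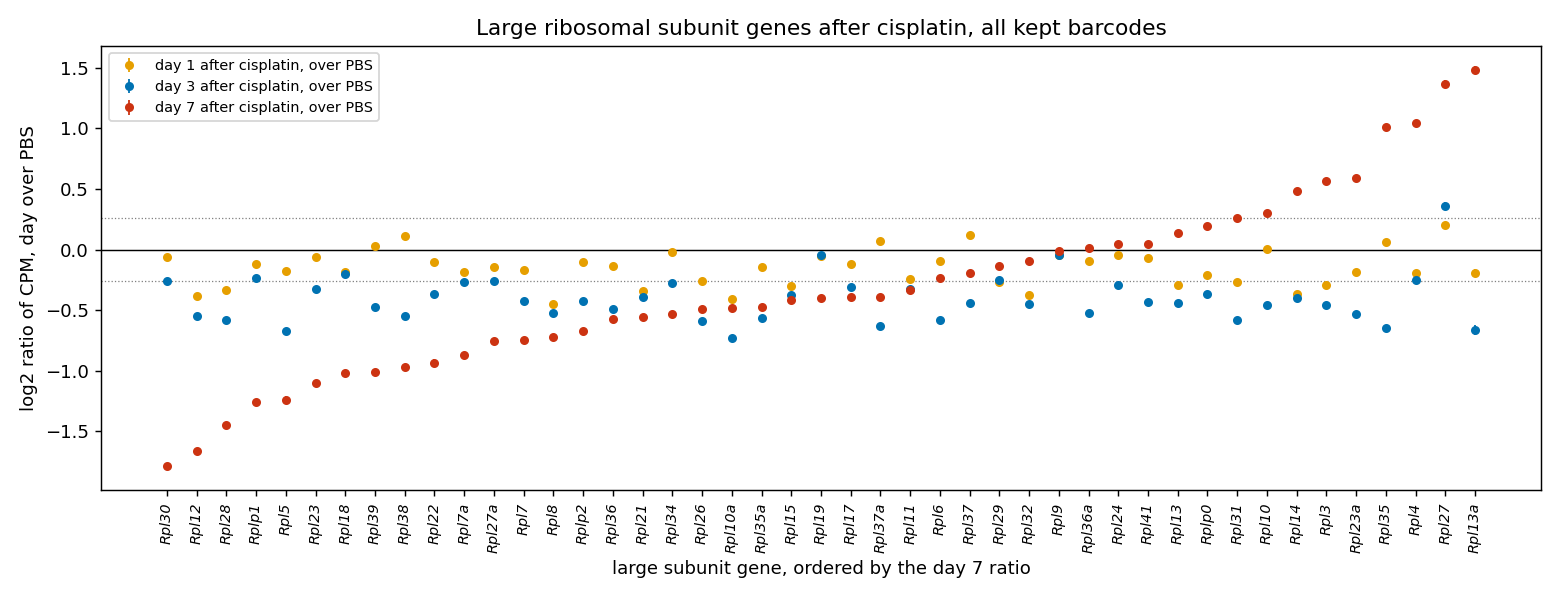
Log2 ratio of CPM over all kept barcodes for 45 of the 46 members (horizontal axis, ordered by the day 7 ratio), with day 1, day 3 and day 7 after cisplatin each set over PBS; vertical lines are exact binomial 95% intervals, mostly smaller than the points, and dotted lines mark 1.2-fold. The day 7 points run from -1.79 (Rpl30) to 1.48 (Rpl13a), while on day 3 only Rpl27 lies above the upper dotted line.

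On day 1 the members were slightly lower than in PBS as a group, and no member was called higher. A member was called here when its CPM ratio reached 1.2-fold and the exact binomial 95% interval, which covers counting error only, excluded 1. No test between conditions is possible with 1 library each, and the 3 comparisons share the PBS library. Over all kept barcodes 0 members were called higher and 12 lower on day 1, where 32.5% and 14% of the 12740 genes with at least 100 UMIs were. The members' median log2 ratio was -0.15, beside 0.12 over all those genes and 0.02 over the 2858 genes with at least 10000 UMIs. A CPM is a share of the total, so less ribosomal protein RNA and more of other RNA cannot be told apart.

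The lowest day 1 ratios belonged to Rpl8 and Rpl10a, and the highest to Rpl27. Rpl8, which lies near the peptidyl transferase centre, had 2008 CPM on day 1 and 2735 CPM in PBS, a log2 ratio of -0.45 (95% interval -0.46 to -0.44). Rpl10a, which forms the mobile L1 stalk, had 1559 and 2069 CPM (-0.41), and Rpl12 of the stalk base had 1767 and 2308 CPM (-0.39). Against the group, Rpl27 (0.20), Rpl37 (0.12), Rpl38 (0.11), Rpl37a (0.07), Rpl35 (0.06) and Rpl39 (0.03) had ratios above 0 with intervals that excluded 0. None of these reached 1.2-fold. With TMM scaling, which moved all day 1 ratios by -0.11, those of Rpl37a (-0.04), Rpl35 (-0.05) and Rpl39 (-0.08) were below 0, and the members called lower numbered 23.

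On day 3 nearly the whole family was lower than in PBS. Over all kept barcodes 37 members were called lower and 1 higher, where 31% and 28.8% of all genes were, and the median log2 ratio was -0.43 beside -0.05 over all genes. Of the genes with at least 10000 UMIs, a count range that holds every member, 30.7% were called lower. The lowest was Rpl10a, with 1247 CPM on day 3 and 2069 CPM in PBS (-0.73, 95% interval -0.75 to -0.71). Rpl5 had 864 CPM on day 3 and 1372 CPM in PBS (-0.67), and Rpl13a, which in human monocytes leaves the ribosome after interferon-γ to silence inflammatory mRNAs, had 179 and 283 CPM (-0.66). Its neighbours in that order were Rpl35 (-0.65), a protein at the tunnel exit, and Rpl37a (-0.63).

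Rpl27 alone was higher on day 3, with 397 CPM on day 3 and 310.0 CPM in PBS, a log2 ratio of 0.36 (95% interval 0.32 to 0.39). Rpl19 (-0.04), Rpl9 (-0.05) and Rpl18 (-0.20) were the next highest. Rpl11, the partner of Rpl5 in the 5S particle, lay less far below PBS than Rpl5, at -0.32. With mitochondrial and ribosomal protein genes left out of the total, Rpl27 was no longer called.

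On day 7 the members parted in opposite directions. Over all kept barcodes 9 were called higher and 26 lower, where 29.4% and 28% of all genes were, and the median log2 ratio was -0.39. Calls in both directions were common among other abundant genes too: of those with at least 10000 UMIs, 25% were higher and 36.8% lower. The interquartile range of the day 7 ratios was 0.87 over the members and 0.67 over those abundant genes. At 1.5-fold the counts were 5 higher and 15 lower, against 19.3% and 12.5% of all genes. The members' ratios spanned 3.27 log2 units on day 7, against 0.65 on day 1 and 1.09 on day 3. Among small subunit genes 5 of 32 were called higher and 19 lower, with a median of -0.33.

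Among the members that were higher on day 7, Rpl13a had 283, 248, 179 and 790.4 CPM under PBS and on days 1, 3 and 7. Its log2 ratio of day 7 over PBS was 1.48 (95% interval 1.45 to 1.51), although its day 3 ratio was the third lowest. Rpl27 had 310.0, 356, 397 and 799 CPM in the same order of libraries (day 7 ratio 1.37), so it was above PBS in all 3 comparisons. Rpl4, which reaches into the exit tunnel, had 789.6, 690.2, 665 and 1628 CPM (1.04). Rpl35 had 1278, 1333, 816 and 2578 CPM (1.01). Of these 4 genes Rpl27 was lowest in PBS and the other 3 on day 3. The others called higher included Rpl23a (0.59), which docks targeting factors at the tunnel exit, Rpl3 (0.56), which borders the catalytic centre, Rpl14 (0.49) and Rpl10 (0.30). Rpl31, with 0.26, was just under 1.2-fold. Rpl10 missed 1.2-fold with mitochondrial and ribosomal protein genes left out of the total (0.19) and with TMM scaling (0.25).

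Among the members that were lower on day 7, Rpl30, which in Saccharomyces cerevisiae binds its own transcript, had 2557, 2454, 2139 and 740.2 CPM under PBS and on days 1, 3 and 7. Its log2 ratio of day 7 over PBS was -1.79 (95% interval -1.82 to -1.76). Rpl12 had 2308, 1767, 1583 and 729 CPM in the same order (-1.66), and Rpl28 had 3089, 2454, 2061 and 1130.3 CPM (-1.45). These 3 genes, and Rplp1 with its day 7 ratio of -1.25, were lower at each later day than at the one before. Rpl23, which had 1838 CPM on day 7 and 3941 CPM in PBS, had a ratio of -1.10, and Rpl18 had one of -1.02. Rpl5 had 582 and 1372 CPM (-1.24), while Rpl11 had 1826 and 2297 CPM (-0.33). Rpl22, whose loss in mice blocks the development of alpha-beta T cells, had a ratio of -0.93. The ratio of Rpl38, which in mouse embryos favours translation of Hox mRNAs, was -0.97, and that of Rpl39, a tunnel protein, was -1.01.

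The stalk members differed in direction on day 7. Rplp0 had 3867 CPM on day 7 and 3373 CPM in PBS, a log2 ratio of 0.20, while Rplp2 had 1683 and 2681 CPM (-0.67) and Rplp1 had the ratio of -1.25 given above. On day 3 their ratios were -0.37 for Rplp0, -0.42 for Rplp2 and -0.23 for Rplp1. Rpl41 was near its PBS level on day 7, at 0.05, and at -0.01 with TMM scaling.

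**Figure D2:**
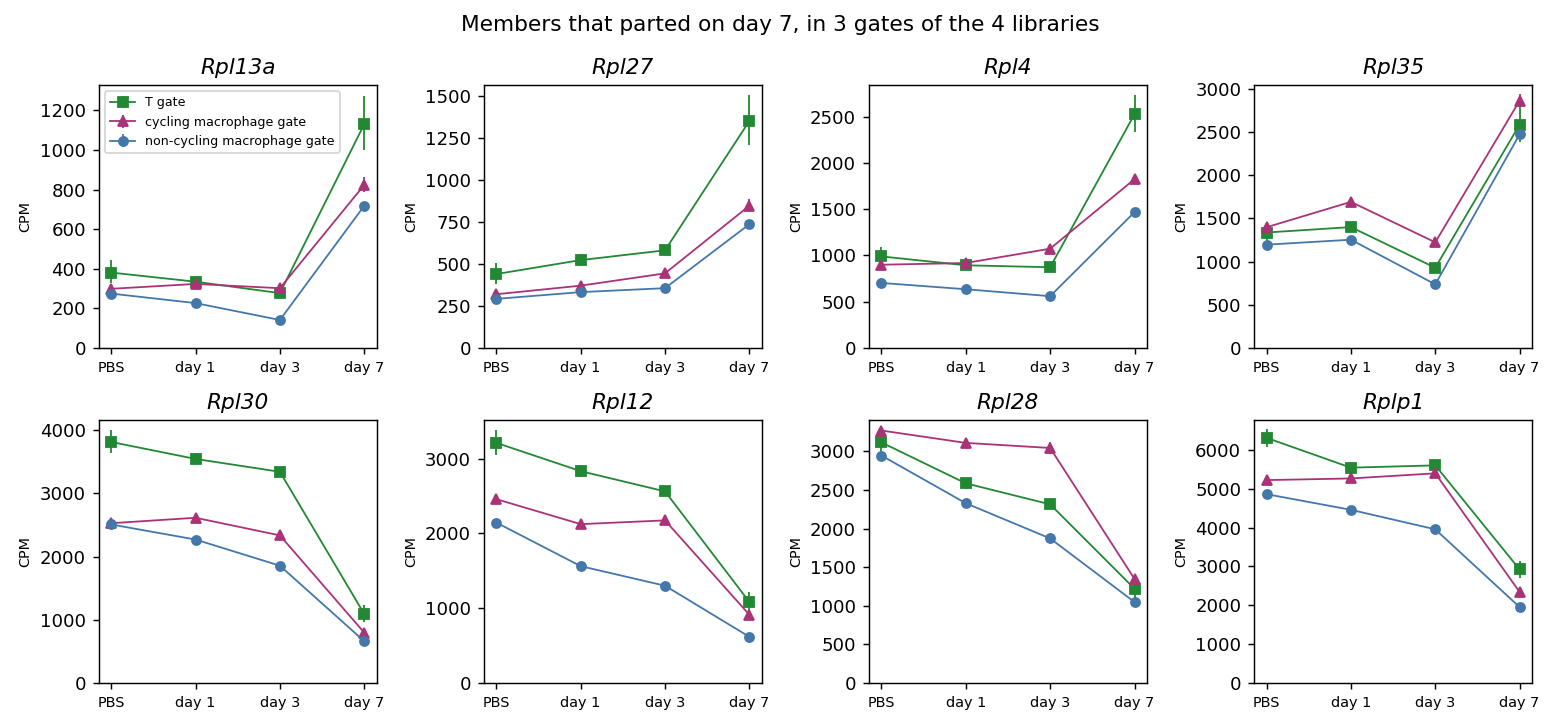
CPM (vertical axes, from 0) of 8 members under PBS and on days 1, 3 and 7 within the T, cycling macrophage and non-cycling macrophage gates; bars are exact Poisson 95% intervals. In each gate the 4 members of the upper panels have their highest level on day 7 and the 4 of the lower panels their lowest.

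Within gates of marker UMIs, Rpl13a, Rpl27 and Rpl4 again stood above PBS on day 7 and Rpl30, Rpl12 and Rpl28 below it. In non-cycling macrophages (C1q genes with at least 10 UMIs and no cycling gene) 8 members were called higher and 26 lower on day 7, where 18.3% and 25.7% of all genes were. In cycling macrophages 11 were higher and 24 lower, against 19.9% and 16.9%. In both macrophage gates the share of members called higher was near that of all genes. In the T gate (at least 2 Cd3 UMIs) 9 were higher and 24 lower, against 6.35% and 4.59%. These backgrounds rest on fewer UMIs in the T gate. Of the genes with at least 10000 UMIs, 14% were higher there and 15.7% lower.

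Rpl13a had 1130.4 CPM on day 7 and 381 CPM in PBS in the T gate, 824 and 299 CPM in cycling macrophages and 718 and 275 CPM in non-cycling macrophages. The log2 ratios were 1.57, 1.46 and 1.38. Rpl27 had ratios of 1.62, 1.40 and 1.33 in the same order of gates, and Rpl4 had 1.35, 1.02 and 1.06. At the other end, Rpl30 had 1089.8 and 3814 CPM in the T gate, 795 and 2528 CPM in cycling macrophages and 659 and 2508 CPM in non-cycling macrophages, with ratios of -1.81, -1.67 and -1.93. For Rpl12 the ratios were -1.57, -1.43 and -1.80. Rpl3 was higher by 0.97 in the T gate, 0.57 in cycling macrophages and 0.55 in non-cycling macrophages, and Rpl23a by 0.93, 0.60 and 0.54. Rpl39 had ratios of -1.05 in the T gate and in non-cycling macrophages, and Rpl5 had -1.33, -1.07 and -1.36 in the 3 gates. Rpl31 was called higher in each of the 3 gates, Rplp0 in cycling macrophages, and Rpl10 in cycling macrophages but not in the other 2.

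In 38 NK and ILC1 barcodes on day 7, set over 25 in PBS, 7 members were called higher and 30 lower, where 2.91% and 2.44% of all genes were. In NK and ILC1 barcodes Rpl13a had a log2 ratio of 1.42 (95% interval 0.91 to 1.96) and Rpl30 one of -1.88 (-2.15 to -1.61). In 31 regulatory T barcodes (Foxp3) on day 7, set over 58 in PBS, 14 were higher and 23 lower, against 3.05% and 2.65%. Rpl13a stood at 1.59 and Rpl30 at -1.96. The shares of all genes rest on few UMIs here. Under PBS the NK and ILC1 gate had 82282 UMIs and the regulatory T gate 144852. At such depth a gene with a low count is rarely called, while most members are well counted. In the NK and ILC1 gate under PBS the least counted members were Rpl13a, with 39 UMIs, and Rpl27, with 50. All these comparisons use the same 2 libraries, so they share whatever sets those libraries apart.

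**Figure D3:**
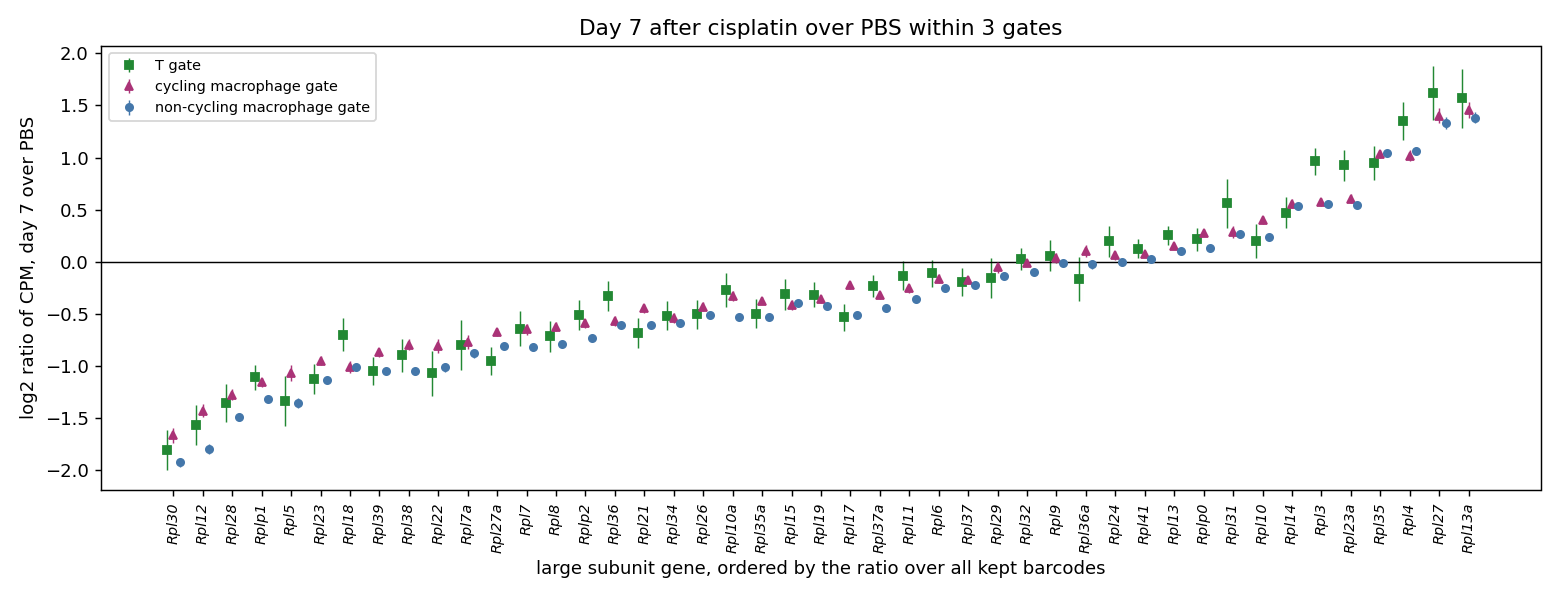
Log2 ratio of CPM, day 7 after cisplatin over PBS, for 45 of the 46 members (horizontal axis, in the order of the ratio over all kept barcodes) in the T, cycling macrophage and non-cycling macrophage gates; lines are exact binomial 95% intervals. Rpl30 lies between -1.93 and -1.67 and Rpl13a between 1.38 and 1.57 in the 3 gates.

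Before day 7, of the T, cycling macrophage and non-cycling macrophage gates, the last had the members' medians furthest below 0. On day 3 the median log2 ratio was -0.55 in non-cycling macrophages, with 43 members called lower and 1 higher where 22.7% and 22.9% of all genes were. It was -0.25 in the T gate, with 21 lower and 1 higher (7.12% and 7.4% of all genes), and -0.09 in cycling macrophages, with 5 lower and 1 higher (10.5% and 14.5%). The member called higher was Rpl27 in each of these gates. Rpl10a had a ratio of -0.37 in the T gate, -0.08 in cycling macrophages and -0.90 in non-cycling macrophages. Rpl13a had -0.46, 0.01 and -0.96 in that order, and Rpl5 had -0.43, -0.37 and -0.84. In cycling macrophages the 5 members called lower on day 3 were Rpl5, Rpl38 (-0.36), Rpl37a (-0.31), Rpl35a (-0.30) and Rpl31 (-0.28). The share of members called lower there was near that of all genes. The day 3 members of non-cycling macrophages that were not called were Rpl19 (-0.13) and Rpl9 (-0.19). Between gates the differences of these ratios have no replicate and were not tested. Under PBS the T gate had fewer UMIs than either macrophage gate, which limits its calls over all genes.

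On day 1 the medians were -0.12 in the T gate, 0.02 in cycling macrophages and -0.19 in non-cycling macrophages. T gate barcodes had 7 members called lower and 0 higher (3.32% and 5.52% of all genes). In non-cycling macrophages 13 were lower and 0 higher (8.85% and 20.6%), and in cycling macrophages 0 were lower and 1, Rpl35, was higher (7.74% and 25.5%). Among regulatory T barcodes 5 were lower and 1 higher on day 1 (1.84% and 1.95%), and 36 were lower and 0 higher on day 3 (2.54% and 3.37%). On day 3 the NK and ILC1 gate had 26 lower and 0 higher (2.18% and 2.17%). In the T, regulatory T and NK and ILC1 gates these shares of all genes rest on few UMIs under PBS. Genes with low counts were therefore rarely called.

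**Figure D4:**
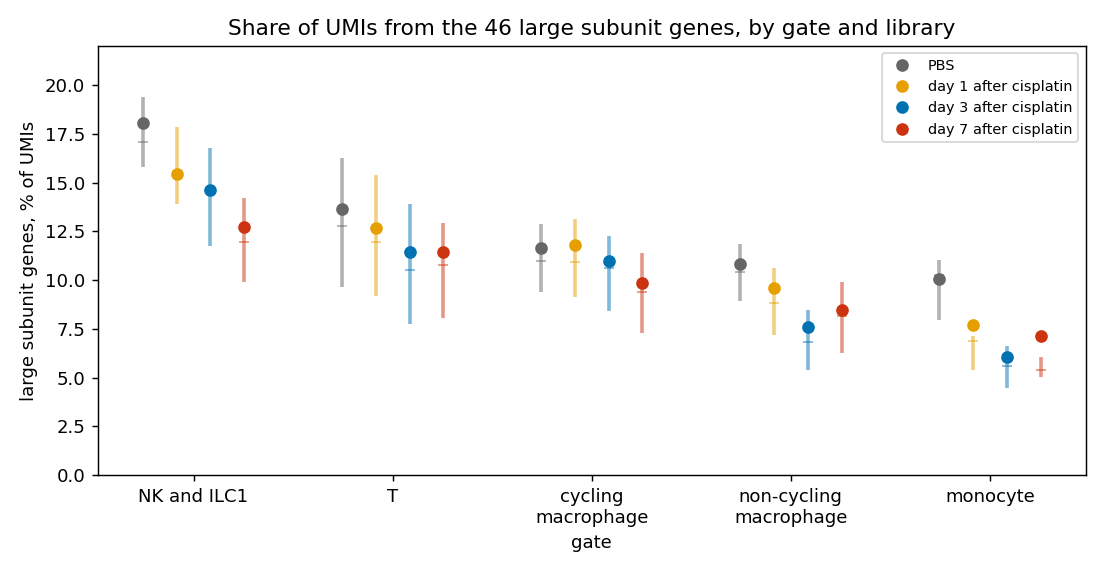
Share of UMIs from the 46 members (vertical axis, in %) in 5 gates, under PBS and on days 1, 3 and 7; points are shares of the summed UMIs, and bars run over the interquartile range of the barcodes, with a tick at the median. The NK and ILC1 gate lies highest in each library, from 12.7% to 18.0%, and the monocyte gate lowest, from 6.05% to 10.1%.

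Gates differed in how much of their RNA came from the family. The share was 18.0%, 15.4%, 14.6% and 12.7% in the NK and ILC1 gate under PBS and on days 1, 3 and 7. It was 13.7%, 12.7%, 11.4% and 11.4% in the T gate, and 10.8%, 9.60%, 7.58% and 8.46% in non-cycling macrophages. Within the T gate, barcodes with Cd8 UMIs had 17.5%, 16.3%, 13.1% and 15.8% under PBS and on days 1, 3 and 7, from 7, 41, 91 and 15 barcodes, of which the first and last are under the minimum of 20 set for a gate. Those with Foxp3 had 11.2%, 10.5%, 8.46% and 10.1%, from 58, 135, 165 and 31 barcodes. Mast cell barcodes held 14.0% in PBS, 14.1% on day 1 and 9.69% on day 3, in 22, 47 and 13 barcodes. The 264 monocyte barcodes of day 3 held 6.05%.

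Differences between gates were tested with edgeR's quasi-likelihood test on UMIs summed per gate and library. The library was a block and the 4 libraries were the replicates. These libraries differ in treatment, so the spread includes any difference between treatments. In the T gate 35 members rose and 1 fell against non-cycling macrophages at a Benjamini-Hochberg adjusted p under 0.05, where 29.5% and 22.6% of 11131 genes did. The members' median log2 fold change was 0.42, beside 0.09 over all genes tested. Rpl12 had the largest, 0.75 ± 0.10 (SE, adjusted p = 1.9e-05), with 3210, 2831, 2561 and 1082 CPM in the T gate under PBS and on days 1, 3 and 7 and 2144, 1561, 1299 and 616 CPM in the macrophages. The T gate was higher in 4 of 4 libraries. Rpl17 (0.68), a tunnel protein, Rpl30 (0.65) and Rpl27 (0.65) followed.

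Rpl10, a protein that joins the subunit late in its assembly and is altered in some human T cell leukaemias, was the member that fell in the T gate. It had 1732, 1741, 1543 and 1988 CPM in the T gate under PBS and on days 1, 3 and 7 and 2168, 2064, 1444 and 2559 CPM in non-cycling macrophages, a log2 fold change of -0.26 ± 0.10 (SE, adjusted p = 0.042 by edgeR). It was lower in 3 of 4 libraries and higher on day 3. The next lowest, Rpl35a (0.02), Rpl31 (0.07) and Rpl26 (0.08), did not pass. Rpl22 rose by 0.40 ± 0.09, Rpl5 by 0.59 ± 0.10, Rpl13a by 0.59 ± 0.13 and Rpl38 by 0.49 ± 0.08. The stalk members rose together here, Rplp0 and Rplp1 by 0.39 and Rplp2 by 0.35. The count of members that rose was 16 without the day 3 library, 20 without PBS, 22 without day 1 and 7 without the library block. Without day 7 it was 35. Rpl10 did not pass without PBS, without day 7, without the block, or when macrophage markers could take up 3% of UMIs. Macrophage check markers summed to 1041 to 1701 CPM in the T gate and to 7677 to 8537 CPM in the macrophages, and median depths were 2087 to 3843 UMIs in the T gate and 4778 to 8769 in the macrophages. Their part in the differences was not tested.

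NK and ILC1 barcodes numbered 18 on day 1, under the minimum of 20 per gate, so this gate was tested with macrophage markers at up to 3% of UMIs instead of 1%, which gave 31, 40, 66 and 44 barcodes under PBS and on days 1, 3 and 7. Against non-cycling macrophages 45 members rose and 0 fell, where 14.7% and 12.6% of 10917 genes did, with a median log2 fold change of 0.60. All 46 passed at an unadjusted p under 0.05. Rpl12 (0.84 ± 0.10), Rpl36 (0.83 ± 0.10), Rpl18 (0.81 ± 0.10) and Rpl27 (0.79 ± 0.09) were highest. Rpl35a (0.25 ± 0.11, SE, adjusted p = 0.085 by edgeR) was the exception. The count was 32 without day 3 and 46 without day 7.

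Set against the T gate, the NK and ILC1 gate had 10 members that rose and 0 that fell, where 2.45% and 2.78% of genes did. Rpl10 led with 0.59 ± 0.11 (SE, adjusted p = 0.0015 by edgeR), followed by Rpl37 (0.42), Rpl13 (0.40) and Rpl29 (0.40). The lowest were Rpl24 (0.08), Rpl17 (0.10), Rpl19 (0.15) and Rpl35a (0.16), none of which passed. The count that rose was 1 without PBS, 1 without day 1 and 5 without day 3.

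**Figure D5:**
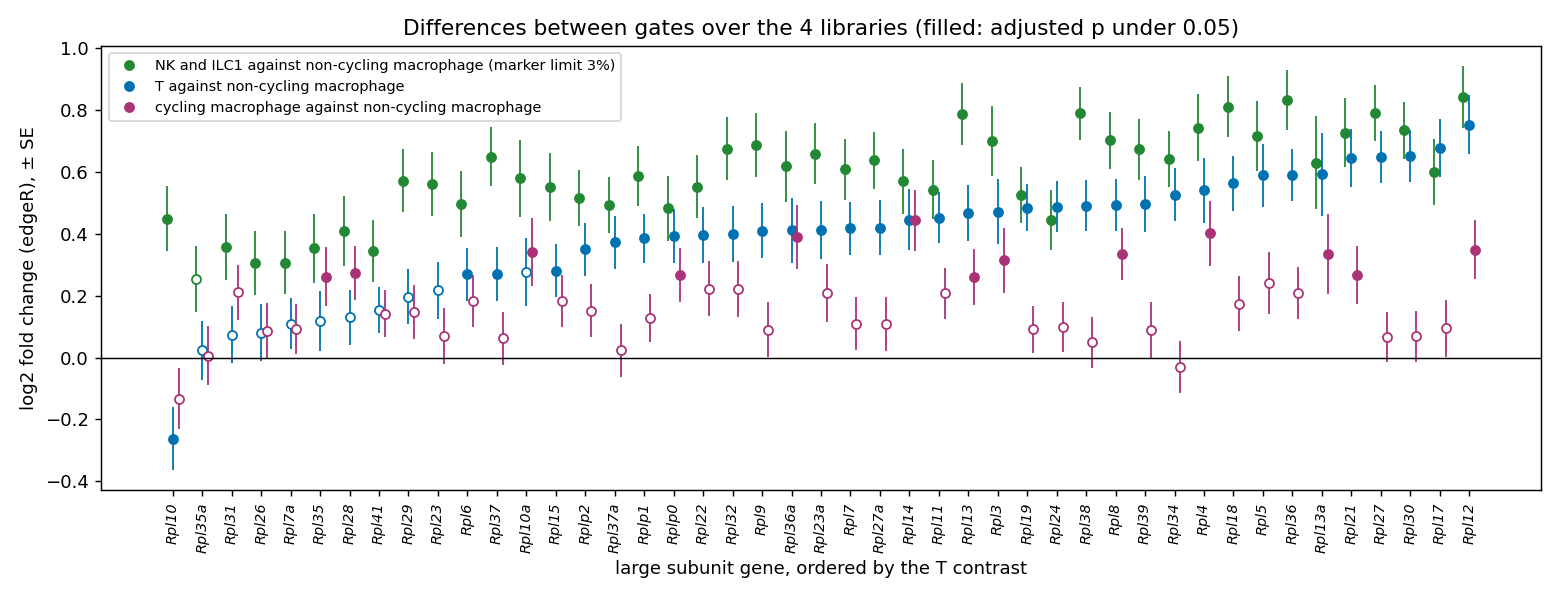
Log2 fold change with its standard error (vertical axis) for 45 of the 46 members in the NK and ILC1, T and cycling macrophage gates, each against non-cycling macrophages over the 4 libraries; filled points have an adjusted p under 0.05 by edgeR. Rpl10 is the only gene plotted below 0 in the T gate (-0.26), and Rpl12 is highest in both lymphoid gates (0.75 and 0.84).

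In cycling macrophages (at least 3 UMIs of Mki67, Top2a, Birc5 and Cdk1) 13 members rose against non-cycling ones and 0 fell, where 22.6% and 25.8% of genes did. The share of members that rose was near that of all genes, and the share that fell was below it. The median log2 fold change of the members was 0.16. Rpl14 had the largest, 0.44 ± 0.10 (SE, adjusted p = 0.0023 by edgeR), with 1806, 1652, 2003 and 2659 CPM in cycling and 1389, 1123, 1022 and 2011 CPM in non-cycling macrophages under PBS and on days 1, 3 and 7. The cycling barcodes were higher in 4 of 4 libraries. Rpl4 (0.40), Rpl36a (0.39) and Rpl12 (0.35) followed, while Rpl10 (-0.13), Rpl34 (-0.03), Rpl35a (0.01) and Rpl37a (0.02) were lowest and did not pass. By library, the members' median difference was 0.13 in PBS, 0.32 on day 1, 0.56 on day 3 and 0.23 on day 7.

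Cycling barcodes were also deeper, with median UMIs of 10002, 16889, 14510 and 8894 under PBS and on days 1, 3 and 7 against 5594, 8769, 6500 and 4778 in non-cycling ones. Without the 8% of barcodes with the most UMIs 0 members rose by edgeR, and 0 did without day 1 (2 and 1 passed at an unadjusted p under 0.05). DESeq2 on all gate barcodes called 15 higher. The count was 7 without PBS, 5 without day 3 and 0 without the library block. Assembly factors of the ribosome, such as nucleolin and fibrillarin, rose in 26 of 29 tested in cycling macrophages, where 22.6% of all genes rose, with a median of 0.70. Without the deepest barcodes 13 of 29 rose, where 1187 of 10114 genes did. Genes of the mitochondrial ribosome rose in 51 of 77, and in 15 of 77 without the deepest barcodes. In the T gate, where 29.5% of all genes rose and 22.6% fell, 8 of 29 assembly factors rose and 1 fell, and 7 of 77 mitochondrial ribosome genes rose and 20 fell. The shares of assembly factors that rose and of mitochondrial ribosome genes that fell there were near those of all genes. Without the deepest barcodes 4 of 29 assembly factors rose and 9 fell in the T gate, and 5 of 77 mitochondrial ribosome genes rose and 40 fell, where 2640 of 10114 genes rose and 3116 fell. Elongation factors and other mRNAs with a pyrimidine tract rose in 12 of 15 in the T gate and in 8 of 15 in cycling macrophages, or 2 of 15 without the deepest barcodes.

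In monocyte barcodes of day 3 (Ly6c2 and Plac8), the members were mostly below non-cycling macrophages of the same library, with 34 at least 1.2-fold lower, 0 higher and a median log2 difference of -0.33. Of all genes 11.3% were lower and 9.81% higher, and of those with at least 10000 UMIs 23.8% were lower. This gate had 7 barcodes in PBS, 14 on day 1 and 14 on day 7, so it was not tested. Non-cycling macrophages with Arg1 held 11.0%, 9.02%, 6.29% and 7.10% of UMIs in the members under PBS and on days 1, 3 and 7. Those with Cd163 and Folr2 held 9.87%, 8.57%, 5.49% and 7.39%, the day 3 value from 6 barcodes.

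Near-identical copies limit what the counts can say of some members. Stretches of 75 bases from the last 300 bases of each member's transcript were searched in the transcripts of other genes, and in 17 members at least 50% of them had an exact copy. Rpl27, with 81.4%, and Rpl35, with 95.6%, were among these. So were Rpl36a (100%), Rpl10a (88.1%), Rpl18 (79.2%), Rpl23a (77.4%), Rpl3 (75.7%), Rpl37 (66.8%), Rpl38 (61.5%), Rpl37a (52.7%) and Rplp1 (52.2%). By contrast, Rpl13a, Rpl4, Rpl30, Rpl12, Rpl28 and Rpl5 had 0%. Copies with a mismatch and copies outside annotated transcripts were not searched, so 0% does not show that a member has no copies. In non-cycling macrophages the day 7 median was -0.43 for the 17 members and -0.53 for the other 29, and both groups held members on either side of 0. On day 1 the medians were -0.12 and -0.20, and on day 3 they were -0.58 and -0.53. The highest ratio among the 17 was 0.19 on day 1 and 0.28 on day 3. Among the other 29 it was -0.04 and -0.19, so every member above 0 on these days was among the 17. Whether copies bear on this was not tested. Of 8 pseudogene features of members, 3 had a higher CPM on day 7 than in PBS, with 95% intervals of the log2 ratio above 0. Rpl27-ps3 had 52.0 CPM on day 7 and 22.8 CPM in PBS, Rpl13a-ps1 had 17.9 and 2.82 CPM, and Rpl9-ps6 had 43.3 and 29.0 CPM. The log2 ratio of Rpl9-ps6 was 0.58, where that of Rpl9 was -0.01. Rpl7a-ps5 was lower, with 5.77 and 7.90 CPM. The intervals of Rpl10-ps3, Rpl36a-ps1 and Rpl9-ps1 included 0, and Rpl36-ps4 had 0 UMIs in both libraries. Whether reads moved between a member and its copies was not tested.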

How the data were processed

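The deposited values are raw counts of UMIs per gene and barcode in 4 libraries, per the file headers. Per the submitters' processing notes, Cell Ranger 3.1.0 and the build mm10 were used, and Seurat 3.1.2 is named without its role. Members and lists were chosen with earlier results of these data known. Barcodes were kept from 500 genes upward and up to 10% mitochondrial counts, no doublet caller was run, and barcodes in more than 1 gate (16 to 83 per library) were left out of all gates. UMIs were summed per gate and library and scaled to CPM. Gates were compared with edgeR 4.0.16 (TMM, filterByExpr, quasi-likelihood, SE from the F statistic) in R 4.3.3 with the library as the block, since gates of a library come from the same tumours. DESeq2 1.42.0 was an alternative. Named members are the 6 with most and the 6 with fewest UMIs, the 4 highest and 4 lowest of each comparison, every member against its group's direction in the library comparisons, and a list of 11. Some of the named members' values stand in counts and in the plots, and 1 member is counted throughout but is not reported here by name. Intervals and floors cover counting error only. Total counts were 59915831, 82493626, 36587207 and 16153484 UMIs under PBS and on days 1, 3 and 7.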

Additional observations from a re-analysis of the deposited data

How the results depend on the processing

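Over all kept barcodes the members' median log2 ratio on day 1 was -0.13 with a mitochondrial limit of 5%, -0.17 over every deposited barcode, -0.18 with CPM without mitochondrial and ribosomal protein genes, -0.26 with TMM, -0.24 with DESeq2 size factors, -0.19 as a mean of CPM per barcode and -0.17 without the top 8% by UMIs. Members called lower then numbered 23 with TMM and 21 with DESeq2 size factors. In the same order the day 3 medians were -0.43, -0.43, -0.53, -0.45, -0.40, -0.51 and -0.50, and 0 members were higher without mitochondrial and ribosomal protein genes in the total. On day 7 they were -0.41, -0.37, -0.50 and -0.45 for the first 4 settings and -0.40 for the mean per barcode. In non-cycling macrophages the 7 settings gave -0.17, -0.21, -0.23, -0.26, -0.24, -0.22 and -0.20 on day 1, with 20 members lower under TMM. On day 3 every barcode gave -0.54, the reduced total -0.67 with 0 members higher, TMM -0.53, DESeq2 size factors -0.53, the mean per barcode -0.60 and the top 8% left out -0.60. On day 7 the values were -0.44 with 5% mitochondrial counts, -0.42, -0.55, -0.33, -0.33 and -0.43 in that order up to the mean per barcode. TMM and DESeq2 size factors moved all non-cycling macrophage ratios of day 7 by 0.11, and those of day 1 over all kept barcodes by -0.11 and -0.09.

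In the T gate the members that rose numbered 19 with no filter on low counts, 7 without the replicate block and 21 with no limit on macrophage markers. Those that fell numbered 0 without the block, with the 3% limit and with no limit. In cycling macrophages 3 rose and 1 fell with no filter, and 0 rose without the replicate block. With the 3% limit 22 rose, and with no limit 24. Without the top 8% by UMIs 0 rose and 1 fell, and Rplp0 was at -0.0075 (adjusted p = 0.964 by edgeR). With 1 library left out, 16 to 35 members rose and 0 to 2 fell in the T gate, 0 to 13 rose in cycling macrophages, and 1 to 10 rose in NK and ILC1 barcodes against the T gate. The cause of these changes was not tested. No paired analysis was possible between days because each is 1 library, so no replicate error stands behind any day's ratio.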

Other observations

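Relatives of the members that the symbol rule leaves out also had values that differed between days. Rpl22l1, the paralogue of Rpl22, had 655, 420.1, 389 and 817 CPM over all kept barcodes under PBS and on days 1, 3 and 7. On day 7 its log2 ratio was 0.32, where that of Rpl22 was -0.93, and on day 3 the ratios were -0.75 and -0.37. In the T gate the day 7 ratios were 0.57 for Rpl22l1 and -1.07 for Rpl22. Rpl36al, the paralogue of Rpl36a, had a day 7 ratio of 0.64, where Rpl36a had 0.02. In Rpl36a 100% of the stretches searched had an exact copy in transcripts of other genes, so its level is uncertain. Rpl10l, a testis paralogue of Rpl10, had 0 UMIs in every library.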
